A study of Mus musculus with 18 samples.

Results

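The 9 genes described here make triglyceride, regulate its making or load it for export from the liver: Mogat1, Dgat1, Dgat2, Gpam, Agpat2, Lpin1, Lpin2, Pparg and Mttp. They were found by symbol: every probe set that the platform annotation assigns to 1 of these names was taken, 17 in all, and the probe set with the brightest mean over the arrays stood for its gene. All 9 lay above the filter on dim signals on every array, so they are 9 of the 14694 genes tested.

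Liver RNA was measured on 18 Affymetrix mouse arrays, 3 for each of 6 groups, from C57BL/6 mice. AIM-KO mice (AIM-/-) lack the apoptosis inhibitor of macrophage, a protein that macrophages secrete and that the gene Cd5l encodes, and WT mice (AIM+/+) have it. The groups were AIM-KO and WT mice on normal chow, AIM-KO and WT mice after 12 weeks of a high-fat diet (HFD), and AIM-KO and WT mice after 20 weeks of HFD. The labels call the arrays of a group biological replicates without saying that each came from a separate mouse, so the p-values cover the spread of these samples alone. The sources used here name neither sex, nor age, nor the way the AIM allele was made, so the effect of time on the diet cannot be told apart from that of age. The comparisons ask how the diet moves these transcripts and whether the loss of AIM changes that.

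Hepatocytes build triglyceride mainly through the glycerol-3-phosphate pathway, in which acyl chains are added to glycerol-3-phosphate 1 at a time. GPAM adds the first acyl chain, AGPAT2 the next, the lipins LPIN1 and LPIN2 remove the phosphate to give diacylglycerol, and DGAT1 or DGAT2 adds the last. MOGAT1 reaches diacylglycerol by another route, from monoacylglycerol, and PPARG is a nuclear receptor that turns on genes of fat uptake and storage. MTTP moves triglyceride onto apolipoprotein B as very-low-density lipoprotein is assembled, the form in which the liver exports it.

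Levels are given as MAS5 intensities, the linear signal of a probe set after each array was scaled to a common mean, and they can be compared between arrays but not between genes. Changes are on the log2(intensity + 3.3) scale, ± SE with n = 3 arrays a group, and genes with an adjusted p below 0.05 were called (limma, Benjamini-Hochberg over all 14694 genes). Array medians ran from 15 to 21.1. Cd5l read 4 to 23.5 on the 9 AIM-KO arrays and 702.6 to 1926.8 on the 9 WT arrays, as the labels state; the sources used here do not say whether its probe set lies in the deleted part. Xist, a transcript of female cells, had intensities of 2921.6 to 3049.7 on 4 arrays, all 3 of the AIM-KO 20 week group and WT 20 weeks replicate 2, and of 7.8 to 26.2 on the remaining 14. At 20 weeks AIM-KO and Xist level therefore cannot be told apart, except through that 1 WT array. A term for Xist in the fit is estimated from that array alone: for comparisons within WT livers it gives the same change as leaving the array out, and for AIM-KO livers at 20 weeks it removes from all 3 arrays the amount by which the 1 WT array stood apart from its group. RNA quality, read from the ratio of 3' to 5' actin signal, gave ratios of 2.25 to 4.22. WT 20 weeks replicate 2, the WT array with high Xist, had 2.54, against 3.64 and 4.22 on replicates 1 and 3 of its group. High Xist and the lowest ratio of the group thus fall on the same WT array.

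Against chow, Mogat1 and Pparg rose in both genotypes at both times, Mttp rose in AIM-KO livers at both times, and Lpin2 rose in AIM-KO livers at 12 weeks and in WT livers at 20 weeks. No member fell. At 12 weeks of HFD 4 of the 9 members were called in AIM-KO livers, where 18% of all genes were called and 11.2% were called higher, and 2 of 9 in WT livers, where the shares were 5.12% and 3.5%. At 20 weeks 3 of 9 were called in AIM-KO livers, against 6.85% of all genes and 4.23% called higher, and 3 of 9 in WT livers, against 14.4% and 8.68%. Over the 9 members the median log2 change was 0.61 in AIM-KO and 0.52 in WT livers at 12 weeks, and 0.26 in AIM-KO and 0.41 in WT livers at 20 weeks. Counts of the other gene lists stand against the same shares of all genes. The median of all genes lay between -0.01 and 0.04 in the same comparisons. The 12 and 20 week comparisons of a genotype share its chow arrays, so their values are given side by side and are not separate evidence. All 3 AIM-KO arrays at 20 weeks and no AIM-KO chow array had high Xist. In that comparison diet and Xist level therefore cannot be told apart, except through the 1 WT array with high Xist. With a term for Xist the AIM-KO calls of Mogat1, Pparg and Mttp at 20 weeks were lost.

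**Figure D1:**
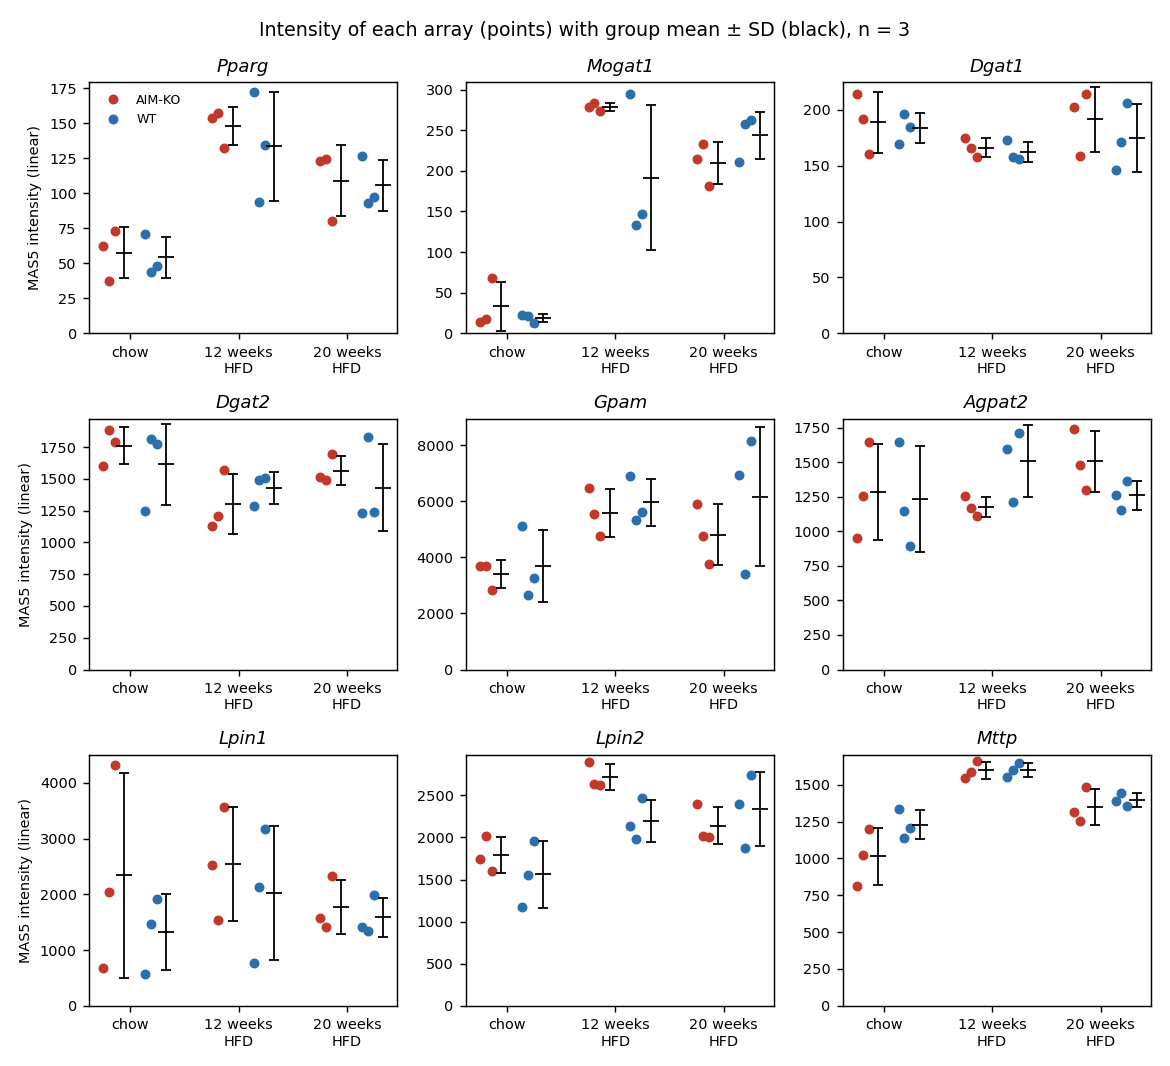
Intensity of each of the 9 genes on each array (points; linear axis from 0), for AIM-KO (left of each pair) and WT livers on chow and after 12 and 20 weeks of HFD, with the group mean ± SD (n = 3) in black. Mogat1 and Pparg on HFD lie above every chow array in both genotypes, while Dgat1 lies between 146.3 and 214 on all 18 arrays.

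**Figure D2:**
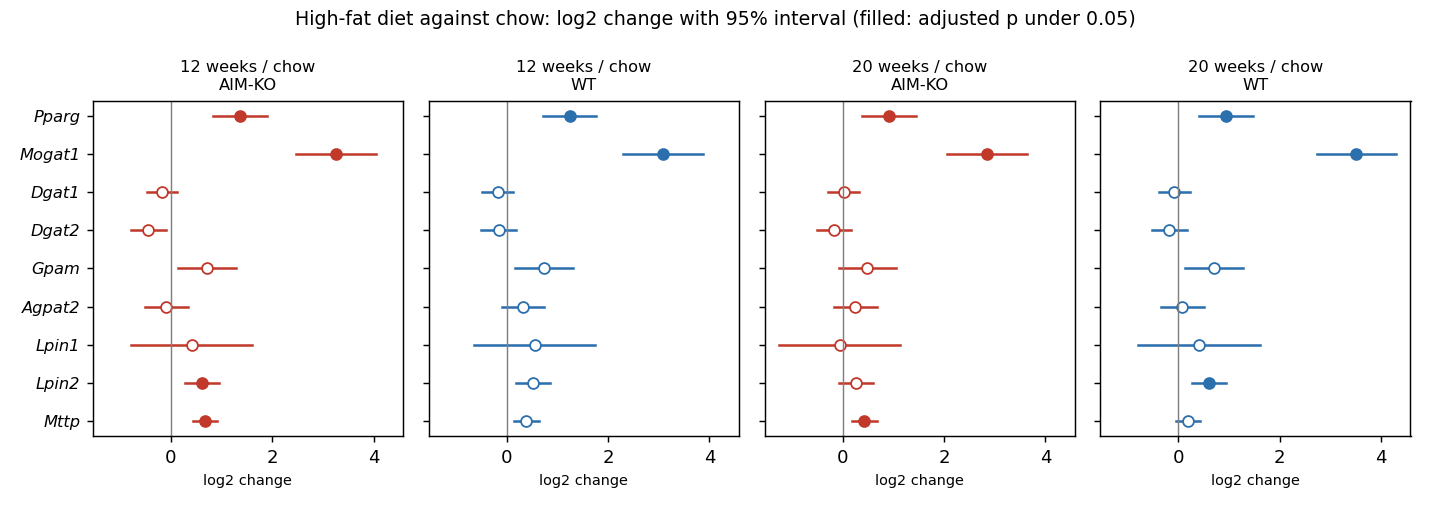
Log2 change of each gene on HFD against chow with its 95% interval, in AIM-KO and WT livers at 12 and 20 weeks; filled points have an adjusted p under 0.05. Mogat1 stands farthest from 0 in all 4 comparisons, and no filled point lies below 0.

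Pparg encodes the receptor itself, and its level on HFD was higher in both genotypes. On chow it read 62.1, 37.3 and 72.7 in AIM-KO livers and 71, 44.1 and 47.7 in WT livers. After 12 weeks of HFD its intensity was 153.7, 157.6 and 132.2 in AIM-KO livers and 172.1, 94 and 134.1 in WT livers. After 20 weeks Pparg read 122.9, 124.1 and 80.1 in AIM-KO livers and 126.7, 93.1 and 97 in WT livers. Every HFD array thus lay above every chow array of its genotype, with AIM-KO 20 weeks replicate 3 the nearest to its chow group. The log2 change at 12 weeks was 1.36 ± 0.25 in AIM-KO (adjusted p = 0.001) and 1.24 ± 0.25 in WT livers (adjusted p = 0.0065). The 20 week change was 0.91 ± 0.25 in AIM-KO (adjusted p = 0.036) and 0.94 ± 0.25 in WT livers (adjusted p = 0.017).

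With each array left out in turn, the AIM-KO call for Pparg at 12 weeks held in 18 of 18 fits, and the other calls rested on single arrays. In WT livers the 12 week call was lost when WT 12 weeks replicate 1 was left out (1.04, adjusted p = 0.054), and the 20 week call without WT chow replicate 2 (0.81, adjusted p = 0.083), WT chow replicate 3 (0.86, adjusted p = 0.069) or WT 20 weeks replicate 1 (0.8, adjusted p = 0.084). In AIM-KO livers at 20 weeks it ended without chow replicate 1 (0.99, adjusted p = 0.052), chow replicate 2 (0.65, adjusted p = 0.18), or 20 weeks replicate 1 or 2 (0.81 each, adjusted p = 0.14 each), and with a term for Xist (1.16, adjusted p = 0.25). That call was also lost after quantile normalization (0.83, adjusted p = 0.06), without the variance trend (0.91, adjusted p = 0.071) and with only its 2 groups in the fit (0.91, adjusted p = 0.094).

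The promoter windows of Pparg and Mogat1 are shown because these genes rose together on HFD in both genotypes, and because nuclear receptors of the PPARG kind are known to bind AGGTCA and its repeats. Each window runs from 250 bases before to 50 after a RefSeq gene start (build GRCm38.p6), and 7 members have 12 such windows. Capitals mark AGGTCA in the Pparg windows, both on the plus strand: chr6:115360894-115361193 and chr6:115362099-115362398.
Pparg window 1: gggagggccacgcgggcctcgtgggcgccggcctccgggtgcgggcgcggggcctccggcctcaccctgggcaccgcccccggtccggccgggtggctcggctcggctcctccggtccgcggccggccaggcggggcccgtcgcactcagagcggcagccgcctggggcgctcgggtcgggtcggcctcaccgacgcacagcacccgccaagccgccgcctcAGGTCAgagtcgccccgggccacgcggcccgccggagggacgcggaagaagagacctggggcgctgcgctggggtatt
Pparg window 2: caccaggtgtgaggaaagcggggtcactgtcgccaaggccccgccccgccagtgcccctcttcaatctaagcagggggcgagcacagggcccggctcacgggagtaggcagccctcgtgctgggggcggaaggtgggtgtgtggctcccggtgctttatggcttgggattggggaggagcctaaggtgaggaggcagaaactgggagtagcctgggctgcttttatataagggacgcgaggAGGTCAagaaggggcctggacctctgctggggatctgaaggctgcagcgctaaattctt
AGGTCA lies 28 to 23 bases before the start in the first window and 9 to 4 bases before it in the next, and these letters were not found in the remaining Pparg window, chr6:115421816-115422115. The letters also occur in the Lpin1 window, 74 to 69 bases before the start, and in 1 Gpam window, 196 to 191 bases before it, and neither gene was called on the diet. Searched on both strands, AGGTCA was in 16.3% of the 32851 windows of the RefSeq table, so the match is a description of these letters only.

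Mogat1 encodes monoacylglycerol acyltransferase 1, and it changed most of the 9 genes. On chow it read 14.4, 17 and 68 in AIM-KO livers and 21.9, 20.9 and 13 in WT livers. After 12 weeks Mogat1 read 278.8, 284 and 273.5 in AIM-KO livers and 294.4, 133 and 147 in WT livers. Its 20 week intensities were 214.3, 232.8 and 181.3 in AIM-KO livers and 210.7, 257.8 and 262.2 in WT livers. No HFD array of either genotype overlapped the chow arrays, among which AIM-KO replicate 3 stood highest. On the other 5 chow arrays the gene read about as low as the array median. Its log2 change at 12 weeks was 3.26 ± 0.38 in AIM-KO (adjusted p = 1.2e-05) and 3.09 ± 0.38 in WT livers (adjusted p = 8.4e-05). Its 20 week change was 2.84 ± 0.38 in AIM-KO (adjusted p = 0.00012) and 3.51 ± 0.38 in WT livers (adjusted p = 7e-06). These were among the larger changes on the array, with size ranks among 14694 genes of 31 in AIM-KO and 16 in WT livers at 12 weeks, and of 44 in AIM-KO and 26 in WT livers at 20 weeks. All 4 calls held in every fit that left out an array, and with a term for Xist the AIM-KO change at 20 weeks was 2.71 (adjusted p = 0.065).

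The Mogat1 window, chr1:78510810-78511109 on the plus strand, holds 1 match, in capitals, to a pair of AGGTCA letters spaced by 1 base with up to 2 mismatches allowed.
Mogat1 window: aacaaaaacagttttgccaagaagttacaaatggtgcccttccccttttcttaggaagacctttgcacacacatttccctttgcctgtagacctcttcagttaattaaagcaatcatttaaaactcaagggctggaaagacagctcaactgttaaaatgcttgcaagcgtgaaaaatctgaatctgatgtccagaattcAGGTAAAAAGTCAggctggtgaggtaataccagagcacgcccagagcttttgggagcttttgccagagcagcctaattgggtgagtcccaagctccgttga
The match lies 51 to 39 bases before the start and has 2 mismatches; a search on both strands found such a match in 3.86% of the 32851 windows, and in none of the other 11 windows of the 9 genes. It contains no exact AGGTCA, the motif marked for Pparg.

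Of all genes tested, the ones whose levels ran most like Mogat1 over the 18 arrays were Cd36, a fatty acid uptake receptor (Pearson r = 0.99), Dhrs7b (0.97) and Wfdc2 (0.96). These are descriptions without a test: the points share 6 groups and a large diet difference. Cd36 read 194.9, 211.7 and 872 on AIM-KO chow arrays and 233.4, 274.9 and 189.5 on WT chow arrays. The AIM-KO chow array with the high Mogat1 value, replicate 3, was thus also the one with high Cd36. On HFD Cd36 was at 1591.5 to 1908.2 in AIM-KO and 1162.8 to 1896.1 in WT livers, and within WT at 12 weeks replicate 1 was highest for both genes. Mogat1 and Pparg had r = 0.89 over the 18 arrays, and 0.55 once each group's mean was taken out. Closest to Pparg were Zwilch and Fli1 (0.93 each) and 2010003K11Rik (0.92).

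**Figure D3:**
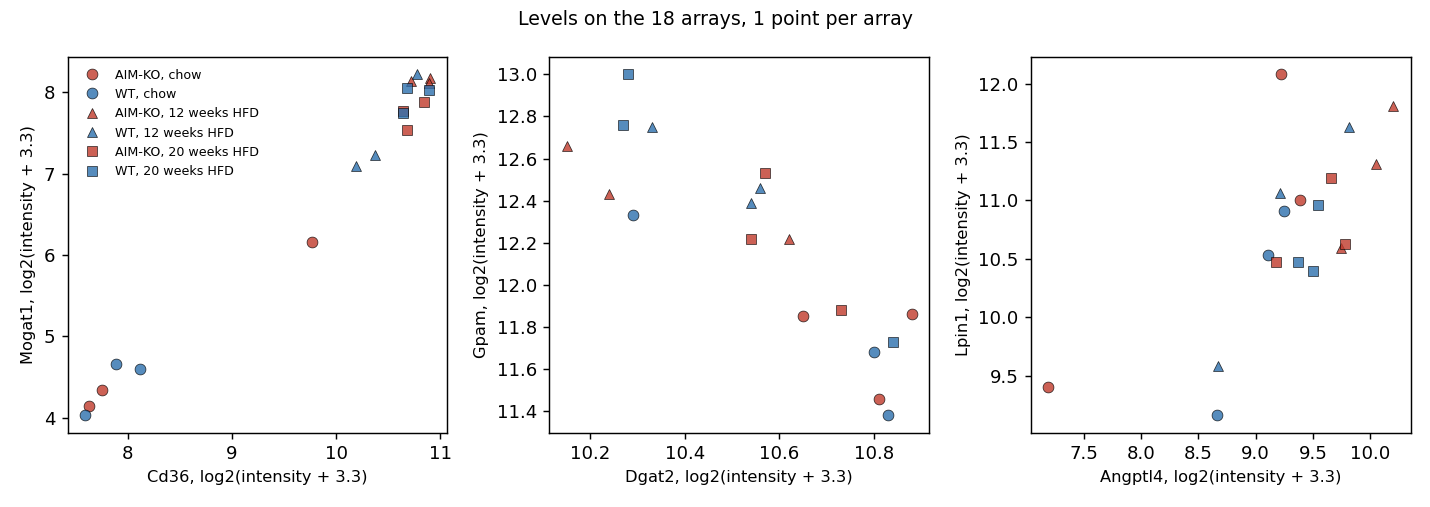
Log2 levels on the 18 arrays, 1 point per array, for Mogat1 against Cd36 (left), Gpam against Dgat2 (middle) and Lpin1 against Angptl4 (right); colour gives genotype and shape gives diet. AIM-KO chow replicate 3 lies between the chow and HFD arrays in the left panel, and Gpam is lower where Dgat2 is higher in the middle one.

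A list of known PPARG target genes, which holds Mogat1 and Cd36, was followed beside them. Of its 16 genes 13 were tested, and 8 rose in AIM-KO and 7 in WT livers at 12 weeks, 6 in AIM-KO and 7 in WT livers at 20 weeks, and none fell. Median log2 changes over the tested genes were 2.19 in AIM-KO and 1.14 in WT livers at 12 weeks, and 1.02 in AIM-KO and 1.35 in WT livers at 20 weeks. Cidea and Cidec encode lipid droplet proteins. On chow Cidea read 1 to 16.3 in AIM-KO and 2 to 7.8 in WT livers, and Cidec 6.1 to 46.9 in AIM-KO and 6.6 to 9.7 in WT livers. Apart from AIM-KO chow replicate 3 these values lay below the lowest array median, so the sizes of the changes are not given. At 12 weeks Cidea read 395.7 to 617.1 in AIM-KO (adjusted p = 3.2e-05 against chow) and 629.3 to 1186.4 in WT livers (adjusted p = 3.9e-05). Cidec then read 694.4 to 771.7 in AIM-KO (adjusted p = 4.7e-07) and 338.1 to 563.4 in WT livers (adjusted p = 5.9e-07). Both genes were thus called higher in both genotypes at 12 weeks.

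At 20 weeks 4 of these targets were lower in AIM-KO livers than at 12 weeks. Cidea read 45.6, 13.4 and 11.8 in AIM-KO and 631.6, 80.2 and 1631.9 in WT livers, and it was called higher than chow in WT (adjusted p = 4.7e-05) but not in AIM-KO livers (adjusted p = 0.24). It was lower in AIM-KO than in WT livers (adjusted p = 0.037), while the difference of the diet changes was not called (adjusted p = 0.21). Cidec read 93.4, 120.4 and 114.4 in AIM-KO and 539.8, 241.8 and 668.1 in WT livers. For both genes the lowest WT array was replicate 2, the WT array with high Xist and the lowest actin ratio of its group. Set against 12 weeks, 4 of the 13 targets fell in AIM-KO livers, where 3.42% of all genes were called, and none in WT livers; the 4 were Cidea (adjusted p = 0.0055), Cidec (adjusted p = 0.0043), Plin4 (-1.3 ± 0.32, adjusted p = 0.033) and Lpl (-1.38 ± 0.32, adjusted p = 0.021). All 3 AIM-KO arrays at 20 weeks had high Xist, and its part was not tested.

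Among 16 tested genes for partners and upstream regulators of PPARG, none rose and 3 fell in AIM-KO livers at 12 weeks, 1 fell in WT livers, none was called in AIM-KO livers at 20 weeks, and 1 rose and 2 fell in WT livers. In WT livers Mlxipl, which encodes the carbohydrate-responsive factor ChREBP, fell by 0.88 ± 0.17 on the log2 scale at 12 weeks (adjusted p = 0.0049) and by 1.08 ± 0.17 at 20 weeks (adjusted p = 0.00038). In AIM-KO livers at 12 weeks Srebf1, a driver of fatty acid synthesis genes, fell by 0.8 ± 0.24 on the log2 scale (adjusted p = 0.028). Its 12 week arrays, at 1274.6 to 1386.1, lay inside the range of the AIM-KO chow arrays, 1240.4 to 3414. Klf15 fell by 0.85 ± 0.28 (adjusted p = 0.038) and Ppargc1a by 0.56 ± 0.19 (adjusted p = 0.043) in the same comparison.

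Fat cells and macrophages also make Pparg, enterocytes also acylate monoacylglycerol, and in bulk tissue fewer cells of a type and less RNA per cell cannot be told apart. Among 8 fat cell markers, of which 6 are on the array and 4 were tested, 1 (Fabp4, which macrophages also make) rose in each of the 4 diet comparisons. Their summed intensity was 153 to 218 in AIM-KO and 202 to 226 in WT livers on chow, 730 to 869 in AIM-KO and 470 to 574 in WT livers at 12 weeks, and 391 to 519 in AIM-KO and 385 to 1110 in WT livers at 20 weeks. Most of the 12 week sum was Fabp4, which then read 617.7 to 768.1 in AIM-KO and 370.3 to 454.7 in WT livers. On chow Fabp4 read 82.2 to 121.3 in AIM-KO and 110.4 to 121.8 in WT livers. The fat cell hormone genes Adipoq and Lep read at most 8.9 and 9.6 on any array, below every array's median. Of 6 enterocyte markers 4 were tested and 2 rose in each comparison, Fabp2 and Apoa4, which liver also makes; the enterocyte markers Mogat2 and Vil1 read at most 23.5 and 11.7. Of 12 macrophage markers 7 rose in AIM-KO and 2 in WT livers at 12 weeks, and none in AIM-KO and 7 in WT livers at 20 weeks. Their summed intensity was 1870 to 2240 in AIM-KO and 2160 to 2220 in WT livers on chow, 3630 to 4050 in AIM-KO and 2350 to 3550 in WT livers at 12 weeks, and 2230 to 2930 in AIM-KO and 3050 to 3770 in WT livers at 20 weeks. Of 9 stellate cell and fibroblast markers 7 rose in AIM-KO and 4 in WT livers at 12 weeks, and 6 in AIM-KO and 8 in WT livers at 20 weeks. The part of these cells in the Pparg values was not tested.

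DGAT1 and DGAT2 both add the last acyl chain, and neither gene was called in any comparison. Dgat1 had means of 189 ± 27.1 in AIM-KO and 184 ± 13.3 in WT livers on chow (SD, n = 3 each), 166 ± 8.6 in AIM-KO and 162 ± 9.19 in WT livers at 12 weeks, and 192 ± 29.3 in AIM-KO and 175 ± 30.2 in WT livers at 20 weeks. Its 95% intervals for the log2 change against chow lay between -0.48 and 0.32 in the 4 comparisons. Changes inside these bounds are not excluded. Most like it were Prcd (r = 0.85), Aspscr1 (0.83) and Frmd5 (0.79). Dgat2 read 1604.7, 1886.7 and 1792.9 in AIM-KO livers on chow and 1249.4, 1816.2 and 1778.4 in WT livers. On HFD for 12 weeks it read 1131.2, 1205.7 and 1570.2 in AIM-KO livers and 1285.3, 1490.3 and 1507.8 in WT livers. All 3 AIM-KO arrays at 12 weeks were below the AIM-KO chow arrays, and the WT groups overlapped. The log2 change was -0.45 ± 0.16 in AIM-KO (adjusted p = 0.068) and -0.16 ± 0.16 in WT livers (adjusted p = 0.66), and the AIM-KO value lay near the threshold. It passed as lower without AIM-KO 12 weeks replicate 3 (-0.59, adjusted p = 0.028), WT chow replicate 1 (-0.45, adjusted p = 0.04) or WT 20 weeks replicate 2 (-0.45, adjusted p = 0.031), an array outside the comparison that enters the shared spread. It also passed with array weights (-0.54, adjusted p = 0.0041), a term for Xist (-0.45, adjusted p = 0.031), the replicate block (-0.45, adjusted p = 0.03) and only its 2 groups in the fit (-0.45, adjusted p = 0.049). At 20 weeks the Dgat2 change was -0.17 ± 0.16 in AIM-KO and -0.18 ± 0.16 in WT livers, with overlapping arrays.

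GPAM starts the pathway at the mitochondrial outer membrane. Its gene read 3685, 3709 and 2823.2 in AIM-KO livers on chow and 5130.4, 2657.2 and 3284.3 in WT livers. On HFD its intensity at 12 weeks was 6468, 5533.2 and 4765.4 in AIM-KO livers and 6905.4, 5350.7 and 5628.8 in WT livers, and at 20 weeks it was 5917.9, 4751.3 and 3758.7 in AIM-KO livers and 6927.3, 3394.8 and 8173.6 in WT livers. Both HFD groups of AIM-KO mice and the 12 week group of WT mice lay above their chow arrays. In WT at 20 weeks replicate 2, the array with high Xist and the lowest actin ratio of its group, fell among the chow values. The log2 change at 12 weeks was 0.71 ± 0.27 in AIM-KO (adjusted p = 0.077) and 0.74 ± 0.27 in WT livers (adjusted p = 0.13). The Gpam change at 20 weeks was 0.48 ± 0.27 in AIM-KO (adjusted p = 0.34) and 0.7 ± 0.27 in WT livers (adjusted p = 0.092). None was called. The calls turned on single arrays and on the fit. Leaving out WT chow replicate 1 gave WT changes of 1 (adjusted p = 0.045) for 12 weeks and 0.97 (adjusted p = 0.027) for 20 weeks, and leaving out WT 20 weeks replicate 2 gave 1.08 (adjusted p = 0.0033) for 20 weeks. Without that array the 12 week changes passed too, at 0.71 in AIM-KO (adjusted p = 0.02) and 0.74 in WT livers (adjusted p = 0.038), and with array weights both WT changes passed (0.84 at 12 weeks, adjusted p = 0.027; 0.92 at 20 weeks, adjusted p = 0.008). With a term for Xist, which rests on that same WT array, the AIM-KO change at 20 weeks was 1.63 (adjusted p = 0.038). The AIM-KO change at 12 weeks passed after quantile normalization (0.94, adjusted p = 0.023), with array weights (0.66, adjusted p = 0.017) and with only its 2 groups in the fit (0.71, adjusted p = 0.0091).

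Gpam and Dgat2, the genes of the first and last steps, ran in opposite directions across the arrays (Pearson r = -0.87, 18 arrays). The relation also held inside the groups (r = -0.88 with each group's mean taken out). It is a description without a test, the points share the 6 groups, and among the 36 pairs of the 9 genes it was the lowest r. WT 20 weeks replicate 2 had the lowest Gpam and the highest Dgat2 of its group, and WT chow replicate 1 the highest Gpam and the lowest Dgat2. Acly, which makes the acetyl-CoA for fatty acid synthesis, was among the 3 genes most like Gpam (r = 0.92, as for Armcx2 and Chrna4), and those most like Dgat2 were Upp2 (0.9), Rcl1 (0.88) and Fn3k (0.87).

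Other enzymes share the first step with GPAM. Of the 13 further genes of glycerolipid synthesis on the list, 12 were tested; 4 rose and 1 fell in AIM-KO livers at 12 weeks, none was called in WT livers, and 2 rose in each genotype at 20 weeks. Gpat3, an endoplasmic reticulum enzyme of the same step as GPAM, read 43.5, 49.2 and 92.5 in AIM-KO and 56.9, 129.5 and 89.9 in WT livers on chow. After 12 weeks Gpat3 read 223.5, 208.9 and 249.8 in AIM-KO and 219.8, 142.4 and 153.6 in WT livers, and at 20 weeks 221.1, 256.8 and 241.5 in AIM-KO and 232.2, 314.4 and 188.7 in WT livers. No HFD array overlapped the chow arrays of its genotype. Its log2 change was 1.9 ± 0.27 in AIM-KO (adjusted p = 0.00012) and 0.93 ± 0.27 in WT livers (adjusted p = 0.057) at 12 weeks, and 1.97 ± 0.27 in AIM-KO (adjusted p = 2e-04) and 1.42 ± 0.27 in WT livers (adjusted p = 0.0017) at 20 weeks. Gpat4, a further isoenzyme of that step, fell by 0.96 ± 0.25 on the log2 scale in AIM-KO livers at 12 weeks (adjusted p = 0.011). On chow Gpat4 read 311.9 to 398.8 in AIM-KO and 161.7 to 209.3 in WT livers, a difference not called (0.92 ± 0.25, adjusted p = 0.33). It read 162.2 to 214.7 in AIM-KO livers at 12 weeks, and 284.3 to 293.8 at 20 weeks, where it was not called against chow.

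Agpat2, whose enzyme adds the next acyl chain to make phosphatidic acid, was not called against chow in either genotype. It read 951.2 to 1649 in AIM-KO and 897.1 to 1648.5 in WT livers on chow, 1111 to 1254.1 in AIM-KO and 1213.2 to 1712.2 in WT livers at 12 weeks, and 1299.7 to 1737.4 in AIM-KO and 1156.2 to 1363.5 in WT livers at 20 weeks. The chow arrays spanned the HFD arrays of both genotypes almost entirely. Log2 changes lay between -0.09 and 0.32, each ± 0.2. The gene most like it was Mrap, an accessory protein of the adrenocorticotropin receptor (r = 0.92), then Ebag9 (0.79) and Cyb5b (0.76).

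Lpin1, which encodes a lipin found in liver, muscle and fat, had the widest spread of the 9 genes between arrays of 1 group. On chow it read 673.5, 2041.8 and 4313.2 in AIM-KO livers and 570.7, 1476.4 and 1918 in WT livers, so that arrays of 1 group differed several-fold. Under HFD it read 2530.9, 1539.3 and 3576.3 in AIM-KO livers and 761.7, 2137.3 and 3165 in WT livers at 12 weeks, and 1580.4, 1415.7 and 2331.3 in AIM-KO and 1411.9, 1349.3 and 1993.1 in WT livers at 20 weeks. All groups overlapped. The SE of a log2 change was 0.57, and no change, from -0.06 in AIM-KO livers at 20 weeks to 0.56 in WT livers at 12 weeks, was near a call. The 95% intervals reached from -1.26 to 1.75, and changes inside these bounds are not excluded. Most like it over the arrays were Gde1 (r = 0.84), Twsg1 (0.8) and Fam149b (0.79).

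Lpin1 is known to follow fasting and the time of day. Among 9 tested genes of the fasting response, Angptl4, a lipase inhibitor, had r = 0.71 with Lpin1 over the 18 arrays and 0.84 inside groups, and Pck1, of glucose production, 0.59 and 0.8. Both were singled out after their values were seen, and the other 7 ranged from -0.16 to 0.36 over the arrays and, inside groups, from -0.52 (Pdk4) and -0.44 (Fgf21) to 0.39 (G6pc). Genes of the fasting list thus ran both with and against Lpin1. On AIM-KO chow replicate 1, which had the lowest Lpin1 of its group, Angptl4 read 142.3, against 666.5 and 593.9 on replicates 2 and 3. For 12 tested clock genes r ran from -0.43 (Nr1d1) to 0.41 (Ciart) over the arrays and from -0.48 (Nr1d1) to 0.51 (Ciart) inside groups. None of these 12 was called in any of the 4 diet comparisons, while of the fasting genes 3 rose and 2 fell in AIM-KO and 2 rose in WT livers at 12 weeks, and 2 rose in AIM-KO and 3 in WT livers at 20 weeks. The sources used here name neither feeding state nor time of collection, and their part was not tested.

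Lpin2 encodes the lipin that is abundant in liver. On chow it read 1739.5, 2022.5 and 1605.7 in AIM-KO livers and 1172, 1553.2 and 1959.5 in WT livers. After 12 weeks Lpin2 read 2895.3, 2632.3 and 2618.6 in AIM-KO and 2140.2, 1978.4 and 2468.2 in WT livers, and at 20 weeks 2395, 2020.7 and 2005.3 in AIM-KO and 2401.2, 1875.4 and 2745.4 in WT livers. At 12 weeks neither genotype overlapped its chow arrays, and at 20 weeks both did. The log2 change at 12 weeks was 0.61 ± 0.16 in AIM-KO (adjusted p = 0.014) and 0.52 ± 0.16 in WT livers (adjusted p = 0.073). Lpin2 changed at 20 weeks by 0.26 ± 0.16 in AIM-KO (adjusted p = 0.41) and 0.6 ± 0.16 in WT livers (adjusted p = 0.018). The difference between the genotypes in the 20 week change was -0.34 ± 0.23 and was not called (adjusted p = 0.66).

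Both Lpin2 calls depended on single arrays, and the WT one on the fit as well. In AIM-KO livers at 12 weeks the call ended without chow replicate 3 (0.53, adjusted p = 0.054) or 12 weeks replicate 1 (0.56, adjusted p = 0.061). In WT livers at 20 weeks it ended without WT chow replicate 1 (0.41, adjusted p = 0.099), WT 20 weeks replicate 1 (0.57, adjusted p = 0.064) or replicate 3 (0.47, adjusted p = 0.097), and the 12 week WT change passed without WT chow replicate 3 (0.7, adjusted p = 0.024) or WT 20 weeks replicate 2 (0.52, adjusted p = 0.045). The WT call at 20 weeks also ended with a term for the actin ratio (0.5, adjusted p = 0.09) and with only its 2 groups in the fit (0.6, adjusted p = 0.093). The actin ratio was 3.64, 2.54 and 4.22 on the WT 20 week arrays, against 2.53, 2.75 and 2.74 on the WT chow arrays, and replicates 1 and 3, with the higher ratios, were also those with the higher Lpin2. Lpin2 has 4 probe sets, and in a fit over all 26674 probe sets that passed the filter the next brightest was called in the same comparisons and in WT at 12 weeks too. Its change was 1 ± 0.23 in AIM-KO (adjusted p = 0.006) and 0.85 ± 0.23 in WT livers (adjusted p = 0.044) at 12 weeks, and 0.14 ± 0.23 in AIM-KO (adjusted p = 0.82) and 0.94 ± 0.23 in WT livers (adjusted p = 0.012) at 20 weeks. The 2 dimmest were not called, with changes from -0.08 to 0.72. Genes most like Lpin2 over the arrays were Mknk2, Akr1c18 and Zfand2a (r = 0.88 each).

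Mttp encodes the large subunit of microsomal triglyceride transfer protein, and it rose in AIM-KO livers. On chow it read 815.1, 1025.3 and 1200 in AIM-KO livers and 1334.4, 1140.2 and 1207.8 in WT livers. On HFD Mttp read 1549, 1587.5 and 1660.9 in AIM-KO and 1549.8, 1600.9 and 1650.6 in WT livers at 12 weeks, and 1315, 1252.3 and 1486.8 in AIM-KO and 1387.9, 1444.9 and 1354.4 in WT livers at 20 weeks. All HFD arrays were above the chow arrays of their genotype, and the AIM-KO chow group had the lowest array. Genes most like it were Tlcd4 and Hspa4l (r = 0.91 each) and Stap1 (0.88). The log2 change at 12 weeks was 0.67 ± 0.11 in AIM-KO (adjusted p = 5e-04) and 0.38 ± 0.11 in WT livers (adjusted p = 0.06). At 20 weeks Mttp changed by 0.43 ± 0.11 in AIM-KO (adjusted p = 0.03) and 0.19 ± 0.11 in WT livers (adjusted p = 0.32).

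The genotypes were not shown to differ in these Mttp changes: the 12 week changes differed by 0.29 ± 0.16 (95% interval -0.05 to 0.63, adjusted p = 0.6) and the 20 week changes by 0.24 ± 0.16 (95% interval -0.1 to 0.58, adjusted p = 0.65). The AIM-KO call at 12 weeks held with each of the 18 arrays left out in turn. At 20 weeks it ended without AIM-KO chow replicate 1 (0.28, adjusted p = 0.14) or replicate 2 (0.45, adjusted p = 0.065), without 20 weeks replicate 1 (0.45, adjusted p = 0.074) or replicate 3 (0.36, adjusted p = 0.13), and with a term for Xist (0.35, adjusted p = 0.46). It was also lost with the mean of probe sets (0.36, adjusted p = 0.091), without the variance trend (0.43, adjusted p = 0.074) and with only its 2 groups in the fit (0.43, adjusted p = 0.14). The WT change at 12 weeks passed with the stricter dim filter (0.38, adjusted p = 0.047), array weights (0.4, adjusted p = 0.014), or without AIM-KO chow replicate 1 (0.38, adjusted p = 0.018) or replicate 3 (0.38, adjusted p = 0.025). The 2 Mttp probe sets disagreed. In the fit over probe sets the dimmer one changed at 12 weeks by 0.2 ± 0.14 in AIM-KO (adjusted p = 0.41) and 0.16 ± 0.14 in WT livers (adjusted p = 0.64), and at 20 weeks by 0.29 ± 0.14 in AIM-KO (adjusted p = 0.29) and -0.02 ± 0.14 in WT livers (adjusted p = 0.96), none called.

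**Figure D4:**
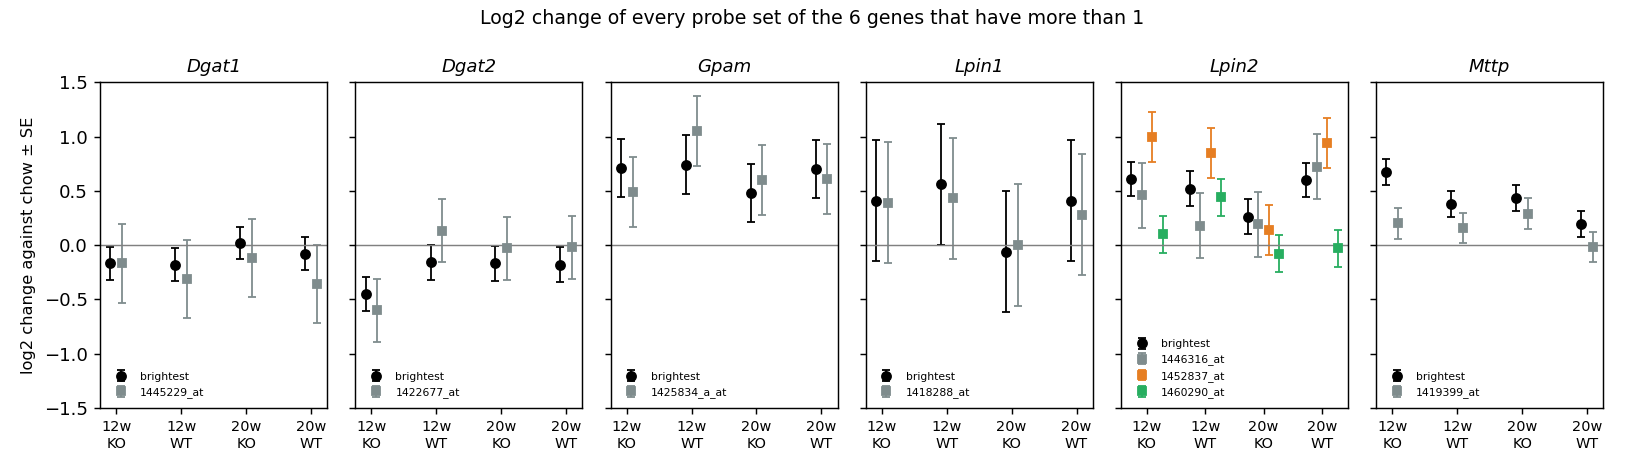
Log2 change against chow ± SE of every probe set of the 6 genes that have more than 1, in AIM-KO (KO) and WT livers at 12 and 20 weeks (12w, 20w); black circles are the brightest probe sets and squares the others, named by probe set. For Mttp the dimmer probe set lies nearer to 0 than the brightest in all 4 comparisons, and for Lpin2 1 of the 3 others lies above the brightest at 12 weeks.

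Other genes of lipoprotein assembly were followed beside Mttp. Of 14 tested, 3 rose and 1 fell in AIM-KO and 1 rose in WT livers at 12 weeks, and 1 rose in AIM-KO, with 2 up and 1 down in WT livers, at 20 weeks. The shares of all genes called were 18% in AIM-KO and 5.12% in WT livers at 12 weeks, and 6.85% in AIM-KO and 14.4% in WT livers at 20 weeks. The list's median lay between -0.03 and 0 in the 4 comparisons. Pltp, which transfers phospholipid between lipoproteins, rose in each: by 1.44 ± 0.3 in AIM-KO (adjusted p = 0.0028) and 1.7 ± 0.3 in WT livers (adjusted p = 0.0027) at 12 weeks, and by 1.37 ± 0.3 in AIM-KO (adjusted p = 0.0095) and 1.55 ± 0.3 in WT livers (adjusted p = 0.0021) at 20 weeks. Apob, the protein that MTTP loads, was not called: it read 6784.4 to 7448.3 in AIM-KO and 7364.9 to 9066.1 in WT livers at 12 weeks, against 7977.7 to 9193 in AIM-KO and 7577.6 to 9567.6 in WT livers on chow. Of the hepatocyte markers 10 of 12 fell in AIM-KO and 1 in WT livers at 12 weeks, and 1 in AIM-KO and 4 in WT livers at 20 weeks, none of them rising. Their summed intensity was 61900 to 66800 in AIM-KO and 68300 to 83400 in WT livers at 12 weeks, against 89100 to 93100 in AIM-KO and 81900 to 97000 in WT livers on chow. The part of hepatocyte share in the values of Mttp and the enzymes was not tested.

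Fatty acids reach these enzymes through uptake and carrier proteins. Of 12 tested genes for them, 5 rose and 2 fell in AIM-KO and 3 rose in WT livers at 12 weeks, and 4 rose in AIM-KO, with 6 up and 1 down in WT livers, at 20 weeks. Cd36 rose by 2.45 ± 0.35 in AIM-KO (adjusted p = 0.00012) and 2.58 ± 0.35 in WT livers (adjusted p = 0.00024) at 12 weeks, and by 2.33 ± 0.35 in AIM-KO (adjusted p = 0.00048) and 2.87 ± 0.35 in WT livers (adjusted p = 3.2e-05) at 20 weeks.

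Between genotypes on the same diet none of the 9 genes was called. The share of all genes called was 0.0272% on chow, 0.0749% at 12 weeks, 0.157% at 20 weeks and 0.0272% for the average over the diets, so calls were rare throughout. At an unadjusted p under 0.05 limma gave 1 member on chow, Mttp, and none in the other 3 comparisons. The share of all genes at that unadjusted threshold was not counted. Mttp on chow differed by -0.29 ± 0.11 (adjusted p = 0.58), with AIM-KO and WT arrays overlapping. At 12 weeks the Mttp difference was 0 ± 0.11 and at 20 weeks -0.05 ± 0.11. Mttp lies on chromosome 3, as does the deleted gene Cd5l, and any part of that position was not tested.

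Some intervals between the genotypes were narrow and others were wide. Averaged over the 3 diets, with 9 AIM-KO and 9 WT arrays, the 95% interval of the log2 difference was -0.11 to 0.24 for Dgat1, -0.15 to 0.25 for Dgat2, -0.25 to 0.03 for Mttp, -0.06 to 0.33 for Lpin2 and -0.25 to 0.24 for Agpat2. It was -0.22 to 0.4 for Pparg, -0.48 to 0.17 for Gpam, -0.17 to 0.74 for Mogat1 and -0.27 to 1.11 for Lpin1. Differences inside these bounds are not excluded. The bounds are not limits of detection: Mttp on chow, with an interval of -0.53 to -0.05, was not called. By diet, Mogat1 had the largest difference at 12 weeks, 0.63 ± 0.38 (adjusted p = 0.7), with WT replicate 1 above and WT replicates 2 and 3 below all AIM-KO arrays. Lpin2 at 12 weeks was the only member whose AIM-KO and WT arrays did not overlap in a genotype comparison, with AIM-KO higher by 0.31 ± 0.16 (adjusted p = 0.64). How many of all genes show no overlap was not counted, so this is a description of its arrays only.

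**Figure D5:**
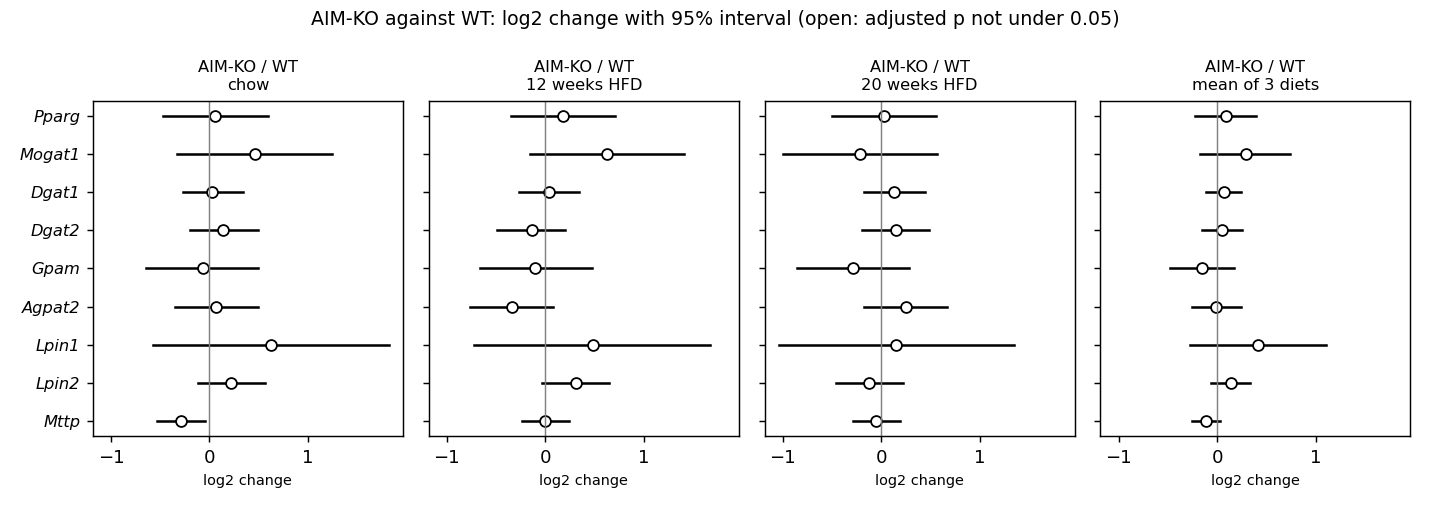
Log2 difference between AIM-KO and WT livers with its 95% interval for each gene, on chow, at 12 and 20 weeks of HFD and averaged over the 3 diets; open points have an adjusted p of 0.05 or more. No point is filled, and of the 36 intervals only that of Mttp on chow leaves out 0.

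Whether the diet acted differently in the genotypes was tested as the difference of the diet changes, and none of the 9 genes was called at 12 weeks, where 0.00681% of all genes were called, or at 20 weeks, where 0% were. None had an unadjusted p under 0.05 in either (limma). The difference for Mogat1 was 0.17 ± 0.53 at 12 weeks and -0.67 ± 0.53 at 20 weeks, and for Pparg 0.13 ± 0.36 at 12 weeks and -0.02 ± 0.36 at 20 weeks. At 12 weeks the intervals of these differences ran from -0.94 to 1.29 for Mogat1 and from -0.62 to 0.88 for Pparg. Values inside them are not excluded, and the bounds are not limits of detection.

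From 12 to 20 weeks on HFD no member was called in either genotype. Of all genes 3.42% were called in AIM-KO and 0.0204% in WT livers. In AIM-KO livers at an unadjusted p under 0.05 limma gave 2 members, and none in WT livers. They were Lpin2, with -0.35 ± 0.16 (adjusted p = 0.29), and Mttp, with -0.25 ± 0.11 (adjusted p = 0.29). The share of all genes at that unadjusted threshold was not counted, so these 2 cannot be set against it. For Mogat1, Pparg, Lpin2 and Mttp every AIM-KO array at 20 weeks was below every AIM-KO array at 12 weeks, and for Agpat2 every one was above. How many of all genes separate in this way was not counted, so this describes the arrays and does not set the members apart. In WT livers such a separation held for Mttp alone, with 20 weeks lower (-0.2 ± 0.11, adjusted p = 0.72). All 3 AIM-KO arrays at 20 weeks, and none at 12 weeks, had high Xist, so time and Xist level cannot be told apart here.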

How the data were processed

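The deposited values are the linear intensity of each probe set, MAS5 values per the submitters' processing notes, with a software version not given in the sources used here. Per the labels, Trizol was used for extraction and 100 ng of total RNA went into biotinylated cRNA. The number of arrays limits the precision. Gene symbols of the old platform annotation were replaced, by entrez id, with those of a GRCm38.p6 table. The scale is log2(value + 3.3), with the 20th percentile of the table as pseudocount, and probe sets had to exceed the 40th percentile of the array on 3 arrays or more. Detection calls were not used here.

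Each gene was tested in limma 3.58.1 (R 4.3.3) with 6 group means over all 18 arrays and a variance trend, 2-sided, and p-values were adjusted over 14694 genes in each of 12 comparisons. Fold changes of dim genes are understated on this scale. The method was tested on simulated data. The members, the other gene lists and the tests were chosen with earlier results of these data known. All members were named, with the 3 genes most like each over 18 arrays and, per other list, up to 3 called genes of largest change; Apob and single markers were named beyond that rule. Promoter windows are from a RefSeq table. Arrays of the same replicate number in other groups had deviations with a mean r of 0.04 (-0.09 to 0.23), so the numbers were not taken as pairs. Alternatives were the pseudocount, quantile normalization, the dim filter, the choice of probe set, the variance trend, array weights, a replicate block, terms for Xist and the actin ratio, only the groups compared, and leaving out each array.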

Additional observations from a re-analysis of the deposited data

How the results depend on the processing

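Over 13 alternative settings and fits leaving out an array, the 12 called values kept their call in 342 of 372 fits and turned sign in none; the arrays that ended a call are named with each gene. The 2 members called in WT at 12 weeks became 4 with array weights or a Xist term. The Xist term is estimated from WT 20 weeks replicate 2 alone, so within WT it gives the same changes as the fit without that array. The 3 in AIM-KO at 20 weeks became 1, Mogat1, without the variance trend or with only the groups compared in the fit; with the Xist term all 3 were lost and the 1 called was Gpam. The 0 in AIM-KO from 12 to 20 weeks became 1 with array weights or the next brightest probe set (chosen after the data were seen) and 2 with only the groups compared. Leaving out each of the 18 arrays, in or outside the groups compared, gave 3 to 6 in AIM-KO and 1 to 4 in WT at 12 weeks, and 1 to 3 in AIM-KO and 1 to 4 in WT at 20 weeks. With the replicate block the counts were 6 in AIM-KO and 2 in WT at 12 weeks, and 3 in AIM-KO and 4 in WT at 20 weeks; Gpam in WT at 20 weeks (adjusted p = 0.044), Gpam in AIM-KO at 12 weeks (0.034) and Dgat2 in AIM-KO at 12 weeks (0.03) then passed, and all other counts stayed at 0.

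Uncalled values near 0 turned sign. With array weights Pparg, AIM-KO against WT, was -0.16 on chow, -0.01 at 20 weeks and -0.01 over the diets, and its 20 week diet difference was 0.16; with the actin term it was 0, -0.24 and -0.05. The Xist term gave 0.14 for the last difference, 0.19 for Lpin2 between genotypes at 20 weeks (0 with the actin term), 0.11 for Lpin2 in AIM-KO from 12 to 20 weeks and 0.25 for Lpin1 in AIM-KO at 20 weeks. Mttp between genotypes was 0.03 at 12 weeks after quantile normalization, and at 20 weeks 0.01 with the mean of probe sets and 0.07 with the next brightest, which also gave -0.02 in WT at 20 weeks and 0.09 in AIM-KO from 12 to 20 weeks, and 0.13 for Dgat2 in WT at 12 weeks. Dgat1 in AIM-KO at 20 weeks was -0.05 with the mean of probe sets or array weights and -0.12 with the next brightest. Leaving out an array, ranges that crossed 0 against chow were -0.21 to 0.04 (Dgat1), -0.13 to 0.31 (Agpat2) and -0.11 to 0.76 (Lpin1) in WT at 20 weeks, -0.29 to 0.11 (Agpat2) and -0.3 to 1.03 (Lpin1) in AIM-KO at 12 weeks, and -0.09 to 0.15 (Dgat1) and -0.77 to 0.56 (Lpin1) in AIM-KO at 20 weeks. Between genotypes they were -0.18 to 0.82 (Mogat1) and -0.13 to 0.32 (Pparg) on chow, -0.04 to 0.38 (Pparg) and -0.03 to 0.02 (Mttp) at 12 weeks, and -0.27 to 0.01 (Lpin2), -0.07 to 0.23 (Pparg) and -0.12 to 0 (Mttp) at 20 weeks. From 12 to 20 weeks Lpin2 in WT ran from -0.04 to 0.23. Differences of the diet change ran from -0.2 to 0.81 (Mogat1), -0.09 to 0.28 (Lpin2) and -0.14 to 0.33 (Pparg) at 12 weeks, and -0.29 to 0.18 (Pparg) at 20 weeks. Of 1240 fits of the 40 remaining values 89 turned sign and none was called. The cause of these shifts was not tested. Signal over background limits Mogat1 on chow, where it read near the array median.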

Other observations

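A list of triglyceride and monoacylglycerol lipases and their activators and inhibitors was also followed. Of 12 listed, 11 were tested; 4 rose and 1 fell in AIM-KO and 3 rose in WT livers at 12 weeks, and 3 rose in AIM-KO, with 4 up and 2 down in WT livers, at 20 weeks. All genes were called at shares of 18% in AIM-KO and 5.12% in WT livers at 12 weeks, and 6.85% in AIM-KO and 14.4% in WT livers at 20 weeks. G0s2, an inhibitor of the triglyceride lipase ATGL, rose by 1.61 ± 0.42 in AIM-KO (adjusted p = 0.012) and 2.26 ± 0.42 in WT livers (adjusted p = 0.0036) at 12 weeks, and by 2.14 ± 0.42 in AIM-KO (adjusted p = 0.0041) and 1.86 ± 0.42 in WT livers (adjusted p = 0.0061) at 20 weeks. Mgll, whose enzyme splits monoacylglycerol, the substrate of MOGAT1, rose by 1.21 ± 0.28 in AIM-KO (adjusted p = 0.0054) and 1.06 ± 0.28 in WT livers (adjusted p = 0.035) at 12 weeks. In AIM-KO livers at 20 weeks Mgll rose by 1.37 ± 0.28 (adjusted p = 0.0056). The WT arrays at 20 weeks read 1187.5 to 1876.7 for Mgll, against 630.4 to 968 on chow. The lysosomal lipase gene Lipa rose by 0.73 ± 0.14 in AIM-KO (adjusted p = 0.0038) and 1.2 ± 0.14 in WT livers (adjusted p = 2.3e-05) at 20 weeks. In WT livers at 12 weeks Lipa rose by 1.03 ± 0.14 (adjusted p = 0.00027). The AIM-KO arrays at 12 weeks read 1112.2 to 1232.8 for Lipa, against 588.1 to 724.3 on chow.

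Genes of the phospholipid branch, which uses the same phosphatidic acid and diacylglycerol, were also followed. Of 17 tested, 2 rose and 1 fell in AIM-KO and 1 rose in WT livers at 12 weeks, and 1 rose in AIM-KO, with 2 up and 1 down in WT livers, at 20 weeks. The choline kinase gene Chkb rose in all 4 comparisons, by 0.93 ± 0.11 in AIM-KO (adjusted p = 2.3e-05) and 0.53 ± 0.11 in WT livers (adjusted p = 0.0086) at 12 weeks, and by 0.74 ± 0.11 in AIM-KO (adjusted p = 0.00049) and 0.44 ± 0.11 in WT livers (adjusted p = 0.014) at 20 weeks. Pemt, which methylates phosphatidylethanolamine to phosphatidylcholine, fell by 0.55 ± 0.13 on the log2 scale in AIM-KO livers at 12 weeks (adjusted p = 0.0069).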
